A study of Mus musculus with 76 samples.

Results

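The genes described here make, conjugate and move bile acids: Cyp7a1, Cyp8b1, Cyp27a1, Cyp7b1, Slc27a5, Baat, Abcb11, Slc10a1, Nr1h4 and Nr0b2. They were chosen by symbol, and 10 of 10 were found among the 16775 genes of the liver table and 5 of 10 among the 18964 genes of the adipose table. The mice were females with free access to food, of a C57BL/6 knock-in line in which a T-to-C change was made in the 3′UTR of Fnip2, a partner of folliculin in nutrient signalling. Fnip2C/C mice are homozygous for the edited allele, which also carries a nearby G-to-C change that disrupts the guide's PAM, and Fnip2T/T mice carry the ancestral allele. The groups were 5 Fnip2C/C and 5 Fnip2T/T livers, and 4 Fnip2C/C and 5 Fnip2T/T visceral white adipose tissues (WAT), one library per mouse, with 6 mice giving both tissues. The edit was present in every cell of the body, so that a difference in one organ may arise elsewhere, and the ages of these mice and the hour of sampling are not given in the labels.

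Bile acids are made from cholesterol in hepatocytes. The classic route starts with Cyp7a1 and the alternative route with Cyp27a1 and Cyp7b1, while Cyp8b1 directs the product towards cholic acid. Slc27a5 and Baat join the acids to an amino acid, Abcb11 exports the conjugates into the canaliculus and Slc10a1 takes them back from the blood. Nr1h4 encodes FXR, the bile acid receptor of the nucleus, and one of its targets, Nr0b2, encodes SHP, a repressor of Cyp7a1 and Cyp8b1.

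The libraries were built from the 3′ ends of transcripts. Liver libraries held 6768458 to 7248863 reads in Fnip2C/C and 5583041 to 7523200 in Fnip2T/T, and WAT libraries held 4180209 to 4629269 and 4336514 to 6277644 reads. The hepatocyte markers were all present in liver, where Adipoq and Plin1 were not listed, and the adipocyte markers were all present in WAT. The 9 ovary markers in the table summed to 24240 normalised counts in the WAT of Fnip2C/C mouse 593, against at most 118 in the other WAT libraries. In WAT, Fnip2C/C libraries had even RNA label numbers and Fnip2T/T libraries had odd ones. Genotype and even or odd number therefore cannot be told apart in WAT, nor in a difference between tissues that uses WAT. In liver the even numbers held 2 Fnip2C/C and 3 Fnip2T/T livers, and the odd numbers the rest. The columns of both deposited tables run from even to odd numbers, an order that is also the genotype order in WAT but not in liver. Over the 11710 genes tested in liver, 117 (0.999%) did not overlap between even and odd numbers and 29 (0.248%) did not overlap between the labelled genotypes. How many genes other splits of the 10 livers would separate was not computed, so these counts do not favour either grouping. Every liver comparison here follows the genotypes of the labels, and whether these match the liver libraries was not tested. Fnip2 itself ranged from 133 to 197 normalised counts in Fnip2C/C livers and from 49.2 to 134 in Fnip2T/T livers, and a 3′ count does not read the allele. In these bulk samples fewer cells of a type and less RNA per cell cannot be told apart.

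RefSeq start-site regions (GRCm38.p6, 250 bases before to 50 after each start) were found for 6 of the 10 genes. They are shown for Abcb11 and Nr0b2, since Abcb11 is a well known target of FXR and Nr0b2 of FXR and LRH-1, another nuclear receptor. The capitals mark an inverted repeat of the nuclear receptor element in Abcb11, and a TCAAGG core in both Nr0b2 stretches. Both Nr0b2 cores lie before the start, at positions -68 and -35, and the labels upstream and downstream give only their order.
Abcb11, chr2:69342658-69342687, minus strand: tggactttAGGCCATTGACCTataagcaaa
Nr0b2 upstream, chr4:133553296-133553325, plus strand: tgacttctggagTCAAGGttgtttggccag
Nr0b2 downstream, chr4:133553329-133553358, plus strand: ccttcccgcccaTCAAGGatataaatagca
The inverted repeat was searched as AGGNCANTGACCT, with the first N left free after the Abcb11 sequence had been read, and it occurs in 0.0365% of 32851 start-site regions on either strand. TCAAGG occurs in 14.4% of them on either strand. These matches are letters in a window and not measured binding sites.

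Cyp7a1, the rate-limiting enzyme of the classic route, varied widely between livers of the same genotype. Its normalised counts were 410, 548, 391, 376 and 848 in Fnip2C/C mice 590, 591, 592, 638 and 639. They were 1291, 672, 198, 1086 and 1422 in Fnip2T/T mice 607, 608, 657, 658 and 659. All Fnip2T/T livers but mouse 657 thus lay above 4 of the Fnip2C/C livers, while that mouse had the lowest value of all, and the groups overlapped. The means were 515 ± 199 (SD, n = 5) and 934 ± 500 (SD, n = 5). On the log2(normalised count + 1) scale the difference, Fnip2C/C minus Fnip2T/T as throughout, was -0.65 with a 95% confidence interval from -1.92 to 0.62 (limma, p = 0.276, Benjamini-Hochberg adjusted p = 1 over 11710 genes, with an exact two-sided permutation p of 0.294). With each liver left out in turn, it ran from -1.14 without mouse 657 (limma unadjusted p = 0.00181, adjusted p = 0.999) to -0.42 without mouse 659 (limma unadjusted p = 0.481). Mouse 657 is the Fnip2T/T liver farthest against the difference, so leaving it out enlarges the difference by construction.

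**Figure D1:**
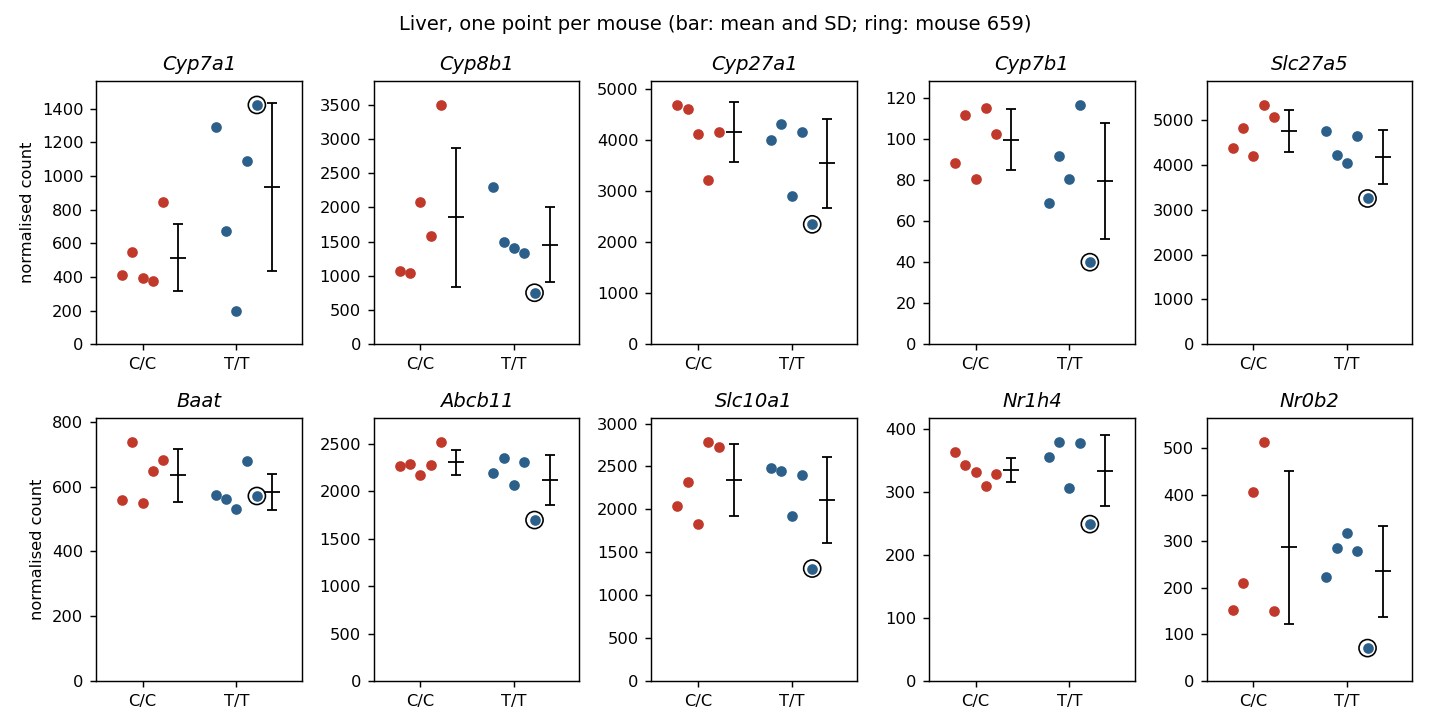
Normalised counts (vertical axis) of the 10 genes in liver by genotype (horizontal axis); each point is a mouse, the bar is the mean with its SD (n = 5), and the ring marks mouse 659. The genotypes overlap in every panel, and mouse 659 is the highest for Cyp7a1 and the lowest for 8 genes.

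Cyp8b1, the sterol hydroxylase of cholic acid synthesis, reached 3495 normalised counts in Fnip2C/C mouse 639. The other Fnip2C/C livers had 1063, 1047, 2071 and 1585 (mice 590, 591, 592 and 638). The Fnip2T/T livers had 2294, 1499, 1409, 1329 and 752 in mice 607, 608, 657, 658 and 659, inside or below the Fnip2C/C range. The difference was 0.28 (95% confidence interval -0.60 to 1.16).

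Cyp27a1, the mitochondrial sterol hydroxylase of the alternative route, had 4688, 4617, 4121, 3226 and 4164 normalised counts in Fnip2C/C mice 590, 591, 592, 638 and 639. The Fnip2T/T livers had 4005, 4311, 2901, 4164 and 2349 in mice 607, 608, 657, 658 and 659. Mice 657 and 659 lay below every Fnip2C/C liver, and the other 3 were inside their range. The difference was 0.26 (95% confidence interval -0.09 to 0.61). Cyp7b1, the oxysterol hydroxylase that follows it, ranged from 80.2 to 115 in Fnip2C/C and from 39.9 to 116 in Fnip2T/T livers. Its difference was 0.39 (95% confidence interval -0.08 to 0.86), the largest positive one of the 10 genes.

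The conjugation genes were steadier. Slc27a5, the bile acid CoA ligase, ranged from 4199 to 5336 normalised counts in Fnip2C/C and from 3250 to 4765 in Fnip2T/T livers, with a difference of 0.19 (95% confidence interval -0.08 to 0.47). Baat, the transferase that adds the amino acid, ranged from 549 to 738 and from 532 to 677, with a difference of 0.12 (95% confidence interval -0.13 to 0.37). The genotypes overlapped for both genes, over most of the range for Baat and less of it for Slc27a5.

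From the lowest to the highest liver, the transporters spanned 1.49-fold (Abcb11) and 2.13-fold (Slc10a1), against 1.64-fold for Slc27a5 and 1.39-fold for Baat. Abcb11, the canalicular export pump whose start-site sequence is shown above, had 2264, 2288, 2175, 2277 and 2524 normalised counts in Fnip2C/C mice 590, 591, 592, 638 and 639. Its Fnip2T/T values were 2191, 2347, 2064, 2311 and 1697 in mice 607, 608, 657, 658 and 659. Apart from mouse 659, the livers lay close together, and the difference was 0.13 (95% confidence interval -0.12 to 0.38). Slc10a1, the sodium-dependent uptake carrier, ranged from 1831 to 2789 in Fnip2C/C and from 1310 to 2480 in Fnip2T/T livers, a difference of 0.17 (95% confidence interval -0.20 to 0.54).

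The receptor and the repressor differed in spread. Nr1h4 ranged from 309 to 363 normalised counts in Fnip2C/C and from 249 to 379 in Fnip2T/T livers, with a difference of 0.02 (95% confidence interval -0.25 to 0.29). Nr0b2 had 152, 211, 407, 514 and 151 in Fnip2C/C mice 590, 591, 592, 638 and 639. It had 223, 286, 318, 279 and 70.5 in Fnip2T/T mice 607, 608, 657, 658 and 659. All Fnip2T/T livers but mouse 659 sat inside the Fnip2C/C range, and mouse 659 lay below it. The difference was 0.27 (95% confidence interval -0.93 to 1.46), and without mouse 659 it was -0.12.

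Of the 10 genes, 0 passed an adjusted p of 0.05 in liver, beside 0% of the 11710 genes tested. At an unadjusted p under 0.05 the count was 0 of 10 with limma, beside 1.97% of genes. With edgeR Cyp7a1 had an unadjusted p of 0.0354, and 269 of the 11710 genes were under 0.05. With DESeq2 the unadjusted p of Cyp7a1 was 0.0806, and with library weights in limma it was 0.136. The exact two-sided permutation p of the single genes ran from 0.135 for Slc27a5 to 0.889 for Nr1h4. The genotypes did not overlap for 0 of 10 genes, beside 0.248% of all genes. The values were higher in Fnip2C/C for 9 of 10 genes, with a median difference of 0.18, beside 51.8% of genes and a median of 0.01 over all genes. Without mouse 659 they were higher for 7 of 10, with a median of 0.06. Among mice numbered under 610 (3 Fnip2C/C and 2 Fnip2T/T livers) they were higher for 3 of 10. Among those over 630 (2 Fnip2C/C and 3 Fnip2T/T livers), which include mouse 659, they were higher for 9 of 10. The shares of all genes within these subsets were not computed. The paper's gene set enrichment analysis lists bile acid metabolism among the top sets enriched in Fnip2T/T livers, which is the other direction. That set is not the list of genes used here, and no set test was run. The intervals for Cyp7a1, Cyp8b1 and Nr0b2 include a change of 1 log2 unit in at least 1 direction. Those of Abcb11, Baat and Nr1h4 stay within 0.38.

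**Figure D2:**
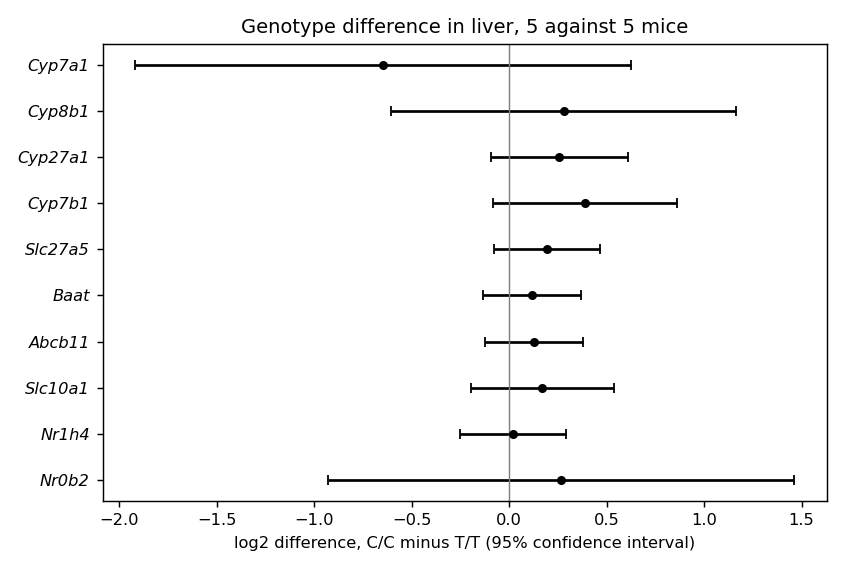
Difference between genotypes in liver for each gene on the log2(normalised count + 1) scale (horizontal axis, Fnip2C/C minus Fnip2T/T; points are limma estimates, bars 95% confidence intervals, 5 against 5 mice). Every interval crosses 0, and those of Cyp7a1, Nr0b2 and Cyp8b1 are the widest.

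Among the 10 genes, the spread between mice of one genotype was widest for Cyp7a1, Nr0b2 and Cyp8b1. It was larger than the size of the difference between genotypes for each gene but Slc27a5 (residual SD 0.1855, difference 0.1937). The residual SD on the log2 scale was 0.90 for Cyp7a1, 0.85 for Nr0b2 and 0.66 for Cyp8b1, against a median of 0.29 over all genes tested. Only 173 genes of 11710 had a larger residual SD than Cyp7a1. At the other end Abcb11 had 0.15 and Baat 0.16. From the lowest to the highest liver, Cyp7a1 spanned 7.20-fold and Nr0b2 7.29-fold, while Baat spanned 1.39-fold.

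One liver stood apart. Fnip2T/T mouse 659 had the lowest value of the 10 livers for 8 of the 10 genes and the highest for Cyp7a1, a pattern noticed after the values were seen. It was the lowest for 13% of all genes tested. Its 8 pericentral hepatocyte markers summed to 10590 normalised counts, against 18390 to 35470 in the other livers. Its 8 periportal markers summed to 30940, within the 20690 to 32720 of the others, and its hepatocyte markers to 836700, within 766600 to 962800. Other lists also left the range of the other livers. It was lower for Kupffer cell (2588 against 2602 to 3726), exocrine pancreas (245.9 against 256 to 486.8) and intestinal epithelium markers (256.1 against 324.5 to 570.6). It was higher for mesothelium markers (1541 against 863.4 to 1461). The cholangiocyte, adipocyte and ovary lists lay within it. The part of these in its values was not tested.

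**Figure D3:**
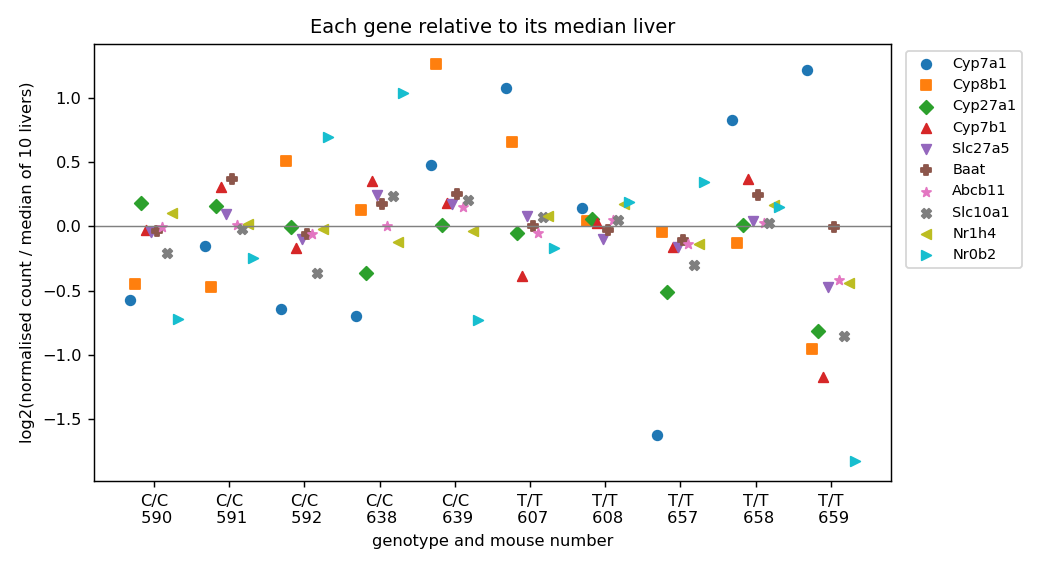
Each gene's normalised count in each liver relative to that gene's median over 10 livers (vertical axis, log2 units; horizontal axis, genotype and mouse). Mouse 659 has 8 genes at their lowest and Cyp7a1 at its highest, and mouse 657 has the lowest Cyp7a1.

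For 7 pairs, genes were compared over the 10 livers. Cyp7a1 and its repressor Nr0b2 had a Pearson r of -0.58 (permutation p = 0.0799, adjusted p = 0.280) and a Spearman rho of -0.68 (permutation p = 0.0337, adjusted p = 0.236). Without mice 657 and 659, farthest from the Cyp7a1 median, r was -0.37 (permutation p = 0.359). Leaving these 2 livers out also narrows the range of Cyp7a1, so it cannot show whether the relation rested on them. Without mouse 659 alone, r was -0.39 and rho was -0.57. Within genotypes r was -0.56. Abcb11 and Nr1h4 had r = 0.79 (permutation p = 0.0215, adjusted p = 0.151) and rho = 0.58 (permutation p = 0.0874, adjusted p = 0.306). Without mice 639 and 659, farthest from the Abcb11 median, r was 0.67 (permutation p = 0.0675), and without mouse 659 alone it was 0.31. Adjusted over the pairs, 0 of 7 passed 0.05. Cyp7a1 and Cyp8b1 had r = 0.01 (permutation p = 0.986, adjusted p = 0.986), with rho = -0.10 (permutation p = 0.785, adjusted p = 0.893).

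**Figure D4:**
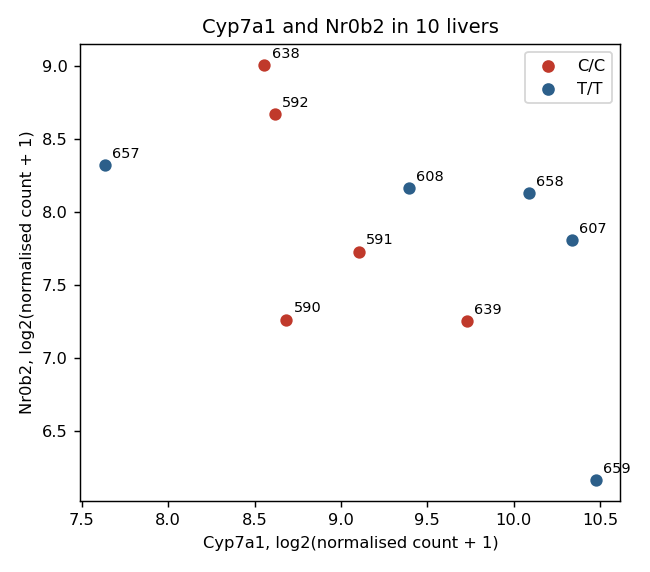
Nr0b2 (vertical axis) against Cyp7a1 (horizontal axis), both as log2(normalised count + 1), with one point per liver labelled by mouse and coloured by genotype. Mice 657 and 659 lie at the 2 ends of the Cyp7a1 axis.

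Over the 10 livers, as a description with no test, the genes whose values followed Cyp7a1 most closely were Ppif, a mitochondrial cyclophilin (r = 0.95), Utp14b (r = 0.94) and Sptlc2, a subunit of serine palmitoyltransferase (r = 0.93). Those nearest to Cyp8b1 were Anapc16 (r = 0.98), Tkfc (r = 0.95) and Sar1b, a GTPase of secretory vesicles (r = 0.93). Those nearest to Nr0b2 were Mief2 (r = 0.97), Plcb3 (r = 0.94) and Kremen1 (r = 0.94). They were the top 3 of 11710 genes over 10 points.

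By RNA label number, the mean of each of the 10 genes was higher in the odd-numbered livers, and the share over all genes was not computed. The even-numbered livers include mice 657 and 659, which had the lowest value of the 10 livers for 2 and 8 of these genes. Slc27a5 ran from 3250 to 4367 normalised counts in even and from 4636 to 5336 in odd livers, and Baat from 532 to 571 and from 574 to 738. These 2 genes did not overlap, beside 0.999% of genes, or 0.598% with the odd livers higher. With a term for the number, added after seeing the data, 0 of 10 genes were called and 9 of 10 were higher in Fnip2C/C. The sign of the genotype difference also changed with mouse number for 6 of 10 genes, with 2 or 3 livers per genotype on each side. How often it changed over all genes was not computed. From mice numbered under 610 to those over 630, Cyp8b1 went from -0.49 to 1.07, Slc10a1 from -0.26 to 0.60 and Nr0b2 from -0.10 to 0.59. Slc27a5, Abcb11 and Nr1h4 went from values just below 0 to 0.40, 0.26 and 0.06. Cyp7a1 was lower in Fnip2C/C in both, at -1.06 and -0.25.

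Among 41 further genes of bile acid synthesis, transport and regulation, 36 were tested in liver and 0 were called. Their median difference was 0.10, with 24 higher (66.67%) and 12 lower in Fnip2C/C. Over all genes tested in liver the median was 0.01, with 51.8% higher. Slco1a1, a sinusoidal organic anion carrier, had the one unadjusted p under 0.05 among the 36, beside 1.97% of all genes tested. Its difference was 1.16 (limma p = 0.0441, adjusted p = 1). Its values ran from 191 to 481 in Fnip2C/C and from 52.0 to 287 in Fnip2T/T livers, the lowest being mouse 659. Of 12 clock genes tested in liver 0 were called. Dbp, a clock output gene, ran from 1.86 to 140 normalised counts over the livers. Its r with Cyp7a1 was 0.08 (permutation p = 0.831, adjusted p = 0.969) and its rho was -0.16 (permutation p = 0.658, adjusted p = 0.893).

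In WAT the listed genes were near the limit of detection apart from Cyp27a1. Abcb11, Slc10a1, Baat, Cyp7a1 and Nr0b2 were not in the table. Cyp7b1 had 1 to 15 reads per library, Cyp8b1 0 to 3 and Nr1h4 0 to 9. Slc27a5 had 1, 1, 5 and 4 reads in the Fnip2C/C libraries and 0 reads in each Fnip2T/T library, which allows up to 3 reads for each. These Slc27a5 libraries did not overlap (exact two-sided permutation p = 0.00794), at 11 reads in all. Only Cyp27a1 reached a mean of 10 normalised counts.

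Cyp27a1 was lower in Fnip2C/C WAT. It had 20.0, 11.2, 21.7 and 14.1 normalised counts in Fnip2C/C mice 590, 593, 599 and 638. It had 162, 43.8, 29.02, 135 and 153 in Fnip2T/T mice 607, 608, 609, 657 and 658. The groups did not overlap, although mice 608 and 609 were much nearer to the Fnip2C/C libraries than the other 3. The log2 difference was -2.31 (95% confidence interval -3.38 to -1.25, limma adjusted p = 0.0045), or 4.98-fold higher in Fnip2T/T. The exact two-sided permutation p was 0.0159 over 126 groupings. It was thus 1 of 1 gene tested, beside 32.1% of the 12798 genes called, 17% lower and 15.1% higher in Fnip2C/C, and 26.1% of genes with no overlap.

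The adipose libraries differed widely, so Cyp27a1 moved among many genes. Of 8 adipocyte markers, 6 were called lower in Fnip2C/C, among them Adipoq (-1.20) and Plin1 (-1.65). Cidec (-0.19, limma adjusted p = 0.65) and Cfd (0.52, limma adjusted p = 0.325) were not called. The summed level of the 8, most of it Cfd, ran from 72020 to 229100 normalised counts in Fnip2C/C and from 108800 to 197600 in Fnip2T/T. The 72020 was mouse 593, and the other WAT libraries of both genotypes had 108800 to 229100. The macrophage markers of the liver list summed to 1109 to 2223 in Fnip2C/C and 613 to 1179 in Fnip2T/T, with C1qa called higher and Adgre1 lower in Fnip2C/C. Of the hepatocyte markers 2 were tested in WAT. Alb was lower in Fnip2C/C (-1.68), while Apoa1 had a difference of 1.37 (limma adjusted p = 0.376). The hepatocyte list, most of it Alb, summed to 33.97 to 140 and 157 to 272. Of 12 clock genes tested in WAT 3 were called, beside 32.1% of all genes tested there. The 3 had differences of -2.07 for Per1, -2.55 for Per2 and 0.80 for Nr1d1, and the other clock genes were not called. The part of these in the Cyp27a1 value was not tested. Without mouse 593 the Cyp27a1 difference was -2.15. In mice numbered under 610 it was -1.75, and in those over 630, with 1 Fnip2C/C mouse, it was -3.27.

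Of the 41 further genes, 17 passed the filter in WAT. Scp2 and Mafg passed the test with lower values in Fnip2C/C, and Abcb1a with higher values. These 3 of 17 compare with 32.1% of all genes tested in WAT. Scp2, a peroxisomal thiolase and sterol carrier, fell by 1.22 on the log2 scale (limma adjusted p = 0.0117). Mafg, a small Maf factor, fell by 1.24 on the log2 scale (limma adjusted p = 0.00268). Abcb1a, a multidrug efflux pump, rose by 0.55 (limma adjusted p = 0.0313). Nr1h3, the oxysterol receptor LXR alpha, differed by -0.68 (limma adjusted p = 0.059).

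The genotype difference of Cyp27a1 was set side by side between tissues, each from its own table because the tables were normalised separately. The liver difference minus the WAT difference was 2.57 (SE 0.55, limma adjusted p = 0.00252), beside 29.2% of the 10404 genes in both tables called. Mafg (1.45) and Scp2 (1.31) also passed the test of the difference between tissues (limma adjusted p = 0.00103 and 0.0119).

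**Figure D5:**
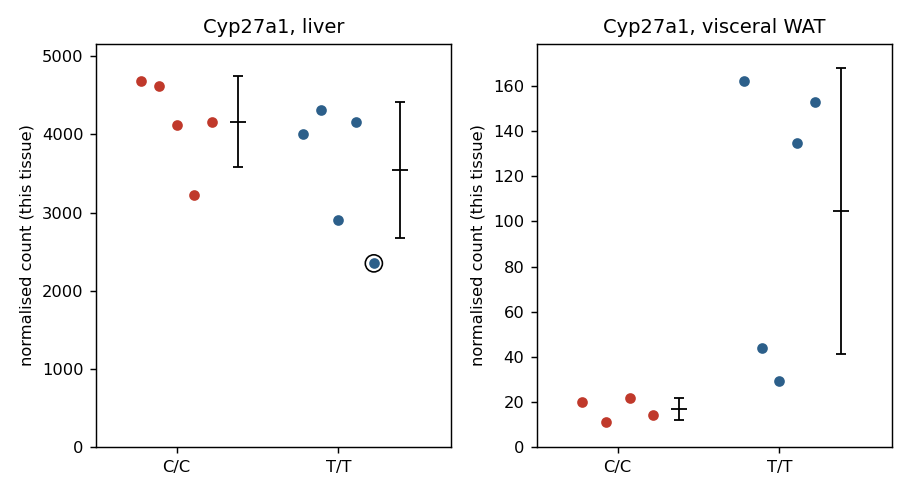
Cyp27a1 normalised counts (vertical axes, a separate scale for each tissue) by genotype (horizontal axes) in liver and visceral WAT; points are mice, bars the mean with its SD, and the ring marks mouse 659. The genotypes overlap in liver, and in WAT each Fnip2C/C mouse lies below each Fnip2T/T mouse.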

How the data were processed

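RNA from mouse liver and visceral WAT was sequenced from its 3′ ends with a stranded, oligo-dT primed kit. The submitters' processing notes name FastQC 0.11.9, HISAT2, SAMtools 1.12, HTSeq, DESeq2 and GRCm39. The deposited signal values are the authors' counts divided by size factors, 1 column per mouse from 4 runs. Whole reads were recovered from them (100% of values, tolerance 1e-06). Of the WAT columns, 1 carried no matching label and was not used.

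The members and lists were chosen with earlier results of these data known. Genes with a mean of at least 10 normalised counts were tested with limma 3.58.1 (trend, robust) on log2(value + 1) in R 4.3.3, with Benjamini-Hochberg adjustment within each table. A fold change on this scale understates that of low genes. edgeR 4.0.16 and DESeq2 1.42.0 were run on the recovered reads as alternatives, beside other pseudocounts, filters, scalings, library weights, a term for mouse number and leaving out each library. Single genes were given exact permutation tests over 252 groupings in liver and 126 in WAT, and pairs of genes 100000 permutations. Named genes were the members, further genes with an unadjusted p under 0.05, Dbp and the 3 nearest genes of Cyp7a1, Cyp8b1 and Nr0b2. Fnip2, the marker genes and the other clock genes given by name fall outside this rule and were picked once their values were known. The code was tested on simulated data. Same-numbered liver and WAT libraries come from the same animal by the labels; their deviations correlated between -0.20 and 0.16. P-values measure the spread between these mice, and chromosome positions of the promoters come from RefSeq GRCm38.p6, not the authors' build.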

Additional observations from a re-analysis of the deposited data

Results flagged for a closer look

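Nr0b2 in the liver of Fnip2T/T mouse 659 had 70.5 normalised counts, and its gap to the nearest liver of its genotype was 0.762 of the group's whole range on the log2 scale, above the limit of 0.71 for 5 samples. It was 1 of 22 groups checked, and chance passes about 1 in 20. The Cyp27a1 genotype difference in liver exceeded that in WAT by 2.57 on the log2 scale (limma adjusted p = 0.00252).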

How the results depend on the processing

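The count of called liver genes stayed at 0 of 10 under every alternative run, and Cyp27a1 in WAT stayed called, between -2.69 and -1.88. With no filter on low values 2 genes were called in WAT, the second being Slc27a5, which rests on 11 reads. Quantile normalization called 5 of the further genes in WAT in place of 3, and leaving out single libraries gave 2 to 4. Nr1h4 in liver turned with edgeR (-4.85e-05) and with a term for mouse number (-0.0161), and ran from -0.0796 to 0.0723 without single livers. Nr0b2 ran from -0.12, without mouse 659, to 0.45. Cyp7a1 ran from -1.14, without mouse 657, to -0.42, without mouse 659. Without mouse 659, chosen after seeing the data, r turned to -0.0856 for Cyp8b1 with Nr0b2, 0.0771 for Cyp7a1 with Cyp7b1 and -0.46 for Abcb11 with Nr0b2, and the last was -0.16 without the 2 farthest livers. The cause was not tested. With the mouse as a block for the pairing of tissues, the Cyp27a1 difference between tissues was 2.56 and 1 gene was called, and the block changed no call among the listed genes. With 5 mice per genotype the intervals still include a fall of 1 log2 unit for Cyp7a1 and a rise of 1 for Nr0b2.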
